A study of Canis lupus familiaris with 20 samples.

Results

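The 60 genes described here were those counted highest in cells of the dog osteosarcoma line OSCA-78 relative to cells of the other lines, out of 24579 gene identifiers in the table. They were selected on measured cell values. CPM, a gene's count scaled by the total of its library, had to reach 10 in both OSCA-78 cell libraries, which 8831 genes did. Each such gene was scored as its lower OSCA-78 cell CPM divided by its highest CPM in any other cell library plus 0.5, and the 60 highest scores were kept. The score used no exosome library, so the exosome values are separate measurements.

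RNA was sequenced from cells of dog osteosarcoma lines and from exosomes in their culture supernatants. There were 2 cell libraries of OSCA-78 and 2 each of OS-1, OS-2 and OSCA-8. Exosome libraries numbered 2 for OSCA-78 (replicates 2 and 3), 4 for OS-1, and 2 each for OS-2, OSCA-32 and OSCA-8. OSCA-32 had exosomes only and so had no part in choosing the genes. The labels give no treatment and no genotype, and every comparison is between single cell lines. No label says that replicates came from separate cultures, and p-values measure only the spread between these libraries.

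Exosomes are small vesicles that cells release after their formation inside endosomes, and they carry proteins and RNA from the releasing cell. Osteosarcoma is a malignant bone tumour that is common in large dogs, and its vesicles are studied as a source of tumour RNA in blood. RNA that is abundant in 1 cell line and scarce in others can serve as a marker of that line's own RNA, and the question for these genes was whether OSCA-78 exosomes held more of them than exosomes of other lines.

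The table pairs no identifier with a gene name, and a RefSeq gene table matched 0 of the 24579. The genes are therefore described by identifier, with no roles, and the labelled cell type could not be checked against bone or tumour markers. Cell libraries held 7728553 to 13301840 counts and exosome libraries 259078 to 481487. A count of 3 was worth 0.226 to 0.388 CPM in cells and 6.23 to 11.6 CPM in exosomes. The 10 most counted genes took 1.63% to 62.7% of an exosome library, with the highest shares in OS-2. Across all libraries 7 genes passed 1% of an exosome library, and 0 of the 60 were among them.

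The 60 genes were enriched in OSCA-78 cells but not private to them. All 60 had a count in at least 1 cell library of another line, 40 exceeded 10 CPM in at least 1 of those 6 libraries, and 21 exceeded it in all 6. Only 6 stayed under 5 CPM in all 6, and 0 stayed under 1 CPM. The scores ran from 1.72 to 4.42 with a median of 2.10. A score of at least 2 was reached by 32 genes, of at least 3 by 12 and of at least 4 by 3. The last gene kept and the first left out differed little: rank 60 had 186 CPM in the lower OSCA-78 library against 108 CPM in the highest other library, and rank 61 had 233 CPM against 135 CPM, both with a score of 1.72. Membership also moved with the rule: 18 of the 60 genes were kept when OSCA-78 cell replicate A alone was used, 30 with replicate B alone, 48 with cell values scaled through the bulk of genes by edgeR's TMM, 34 without OS-1 cells, 36 without OSCA-8 cells and 40 without OS-2 cells.

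In OSCA-78 cells the lower of the replicate values had a median of 50.6 CPM and a maximum of 1223 CPM, while the highest value in other cells ran from 2.24 to 622 CPM with a median of 25.7. The OSCA-78 replicates A and B differed by a median of 1.27-fold across the 60 genes and by up to 4.56-fold, with 8 genes over 2-fold apart. The nearest other cell library was of OS-1 for 34 genes, of OSCA-8 for 22 and of OS-2 for 4. OS-2 cells held the least: 17 genes were under 1 CPM in both OS-2 cell libraries, against 3 in OSCA-8 and 0 in OS-1. All these cell values follow from the selection and carry no test.

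**Figure D1:**
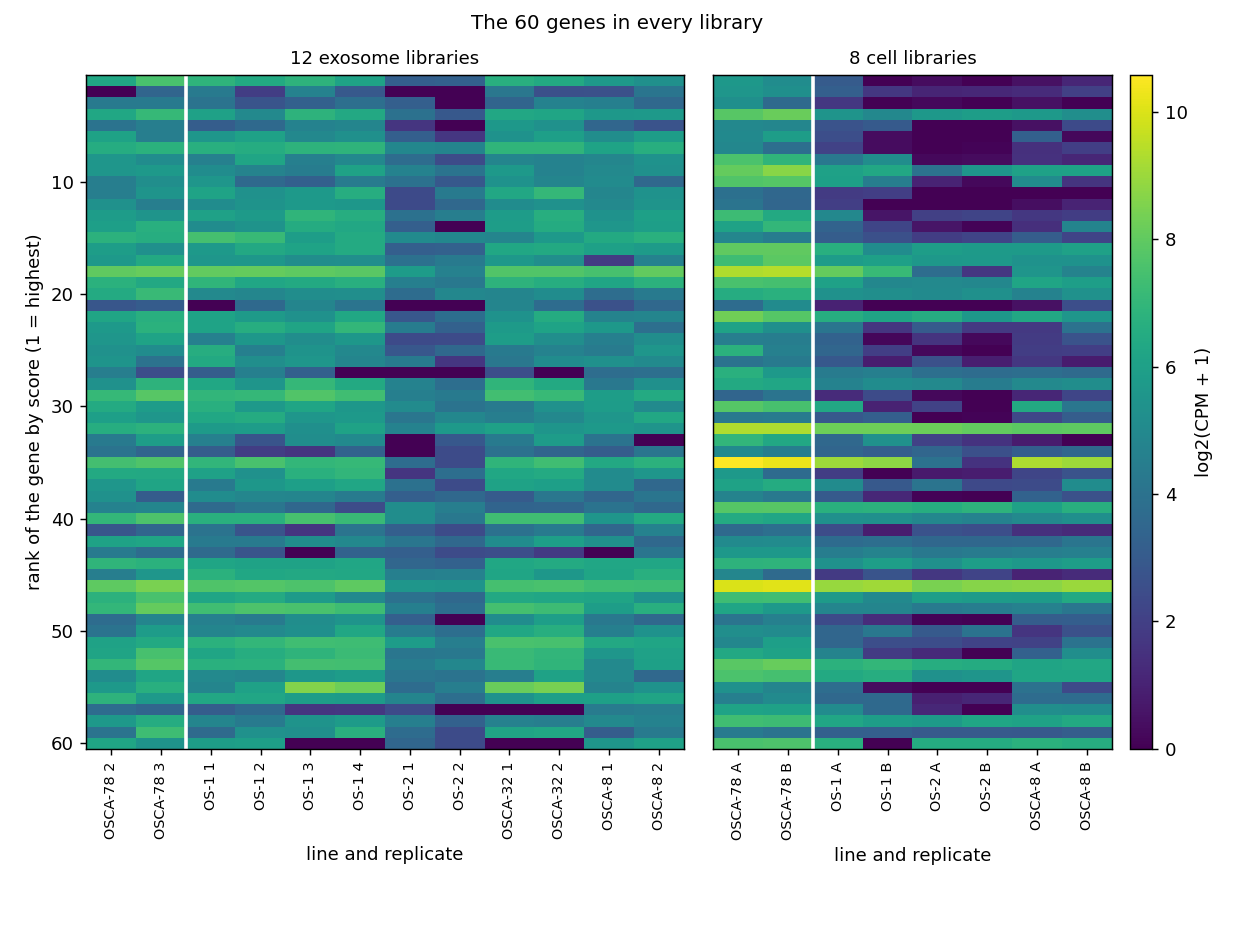
Each row is 1 of the 60 genes, ordered by score from the highest at the top, and each column is 1 library, exosomes on the left and cells on the right; colour gives log2(CPM + 1), and the white line follows OSCA-78. The OSCA-78 cell columns are higher than the other cell columns by construction, while in exosomes the OS-2 columns are the darkest, at the low end of the scale.

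Summed over the 60 genes, OSCA-78 cells held 9034 and 8673 CPM. The sums were 3251 and 2628 CPM in OS-1 cells, 1678 and 1695 CPM in OS-2 cells, and 2623 and 2681 CPM in OSCA-8 cells. The OSCA-78 mean was 3.65 times the mean of the 3 other lines, a ratio that the selection fixed to be above 1 and raised in size. In bulk libraries a larger share of cells with a transcript and more of it per cell cannot be told apart.

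In exosomes the excess was smaller. OSCA-78 exosomes held 3915 CPM in replicate 2 and 5246 CPM in replicate 3, which is 4580 ± 942 CPM (SD, n = 2). OS-1 exosomes held 3779, 3677, 4363 and 4470 CPM, or 4072 ± 402 CPM (SD, n = 4). OSCA-32 exosomes held 4024 and 4301 CPM, OSCA-8 exosomes 2456 and 2945 CPM, and OS-2 exosomes 966 and 774 CPM. OSCA-78 replicate 3 lay above every other exosome library, while replicate 2 fell within the range of OS-1 and below both OSCA-32 libraries. The OSCA-78 mean was 1.55 times the mean of the 4 other lines. By line it was 1.12 times OS-1, 1.10 times OSCA-32, 1.70 times OSCA-8 and 5.27 times OS-2. On total counts, genes in general were also higher in OSCA-78 exosomes. In edgeR fits scaled this way, the median log2 fold change against the 4 other lines was 0.52 over all 15083 tested genes. It was positive for 80.6% of them. The 10 most counted genes took 57.1% and 62.7% of the OS-2 exosome libraries. Their part in these ratios was not tested. Over the same 3 lines that were measured as cells the exosome ratio was 1.80, and the cell ratio was 3.65. The genes were chosen on cell values and not on exosome values. Selection alone therefore favours a larger ratio in cells, and the difference between the ratios is a description.

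As shares of a library, the 60 genes made up 0.391% of OSCA-78 exosome replicate 2 (95% exact Clopper-Pearson interval 0.370% to 0.414%) and 0.525% of replicate 3 (0.503% to 0.547%). The intervals do not meet, so the OSCA-78 replicates differed from each other by more than counting error. The 10 most counted genes took 21.3% of replicate 2 and 2.08% of replicate 3, and the part of this difference in composition in the summed levels was not tested. With the 7 genes over 1% of a library left out, the sums were 5133 ± 273 CPM in OSCA-78 against 4458 ± 153 in OS-1, 2078 ± 138 in OS-2, 4219 ± 166 in OSCA-32 and 3502 ± 168 in OSCA-8, a ratio of 1.44.

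Scaled by TMM, edgeR's trimmed mean of M-values, which sets libraries to a common level through the bulk of genes, the sums were 3659 and 3809 in OSCA-78 exosomes. They were 3116 to 3393 in the 4 OS-1 libraries and averaged 3067 ± 115 in OSCA-32, 2651 ± 62.5 in OSCA-8 and 2286 ± 106 in OS-2 (SD, n = 2 each). On this scale both OSCA-78 libraries lay above all 10 others, and the ratio over the 4 other lines was 1.33. On plain CPM the groups overlapped.

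**Figure D2:**
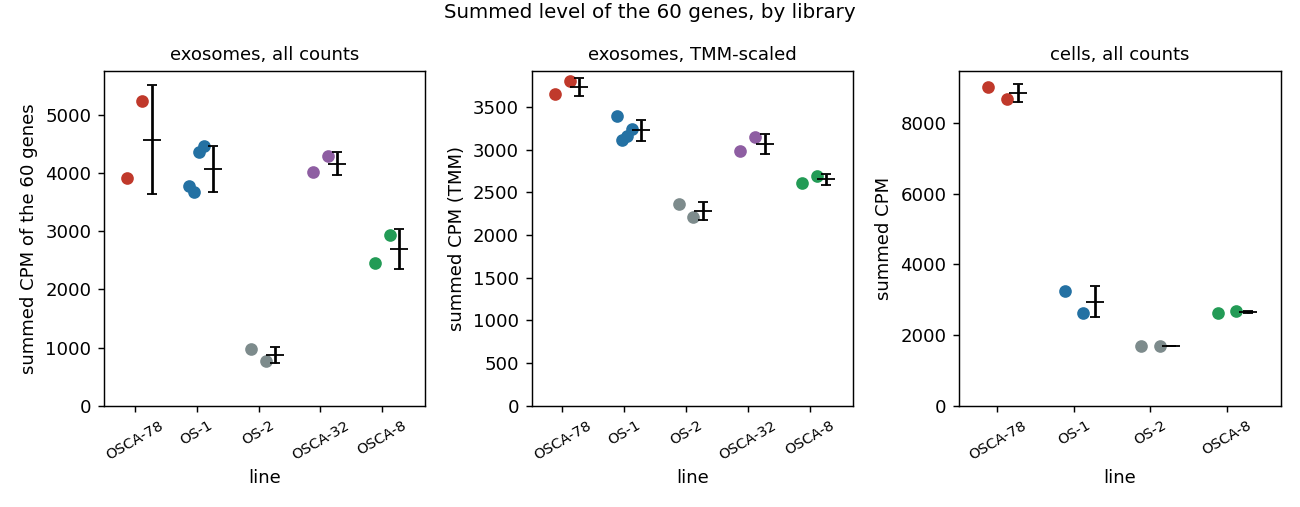
Summed CPM of the 60 genes by line, with 1 point per library and the mean ± SD beside the points: exosomes on total counts, exosomes after TMM scaling, and cells. OSCA-78 cells stand at 9034 and 8673 CPM, far above other cells, by selection. OSCA-78 exosomes at 3915 and 5246 CPM overlap OS-1 and OSCA-32 exosomes on total counts.

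Nearly all of the genes were found in exosomes of every line. Between 52 and 60 of them had a count in any given exosome library, with 59 in OSCA-78 replicate 2 and 60 in replicate 3. All 12 exosome libraries held a count of 48 of the 60 (80.0%), compared with 87.1% of the 8831 genes that passed the floor of 10 CPM in OSCA-78 cells. The 60 were thus not found more widely than genes past the floor in general. In every line, 55 of the 60 were counted in at least 1 exosome library, a number with no share of other genes beside it. Counts per gene were low, 0 to 82 with a median of 16 in OSCA-78 replicate 2 and 2 to 141 with a median of 28 in replicate 3, so single genes were measured far less precisely than in cells.

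The median over the 60 genes of the mean exosome level was 63.3 CPM in OSCA-78, 52.6 CPM in OS-1, 51.6 CPM in OSCA-32, 34.6 CPM in OSCA-8 and 11.3 CPM in OS-2. In cells the same medians were 66.5 CPM in OSCA-78, 14.6 in OS-1, 12.4 in OSCA-8 and 4.42 in OS-2. The exosome mean exceeded the cell mean for 25 of the 60 genes in OSCA-78, where 40.9% of the 8831 genes did so. It exceeded it for 43 genes in OS-1 (45.0% of the 8831), 42 in OSCA-8 (36.1%) and 34 in OS-2 (12%). Because the genes were selected for high OSCA-78 and low other cell values, these counts are a description.

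OSCA-78 had the highest mean of the 5 exosome lines for 32 of the 60 genes, where it was the highest for 22.4% of the 18410 genes with at least 30 pooled exosome counts and for 21.2% of the 8709 of them that passed the 10 CPM floor. OSCA-32 was the highest for 15, OS-1 for 9, OSCA-8 for 3 and OS-2 for 1. After TMM scaling OSCA-78 was the highest for 24 of the 60 genes, against 17.7% of the 18410 and 13.4% of those past the floor. Both OSCA-78 libraries lay above all 10 others for 6 of the 60 genes on CPM, where 2.37% of the 18410 genes did, and for 5 after TMM scaling, where 1.67% did. Both lay below all 10 others for 0 of the 60 on CPM.

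The exosome libraries were compared gene by gene with edgeR's quasi-likelihood test, fitted to the 15083 genes with enough exosome counts and adjusted over all of them by the Benjamini-Hochberg method. Of the 60 genes, 53 could be tested and 7 had too few counts. Against the mean of the 4 other lines, 1 of the 53 was higher in OSCA-78 exosomes at an adjusted p under 0.05, where 0.126% of all tested genes were, and 0 were lower, where 0.152% were. At an unadjusted p under 0.05, 18 were higher (6.54% of all tested genes) and 2 were lower (4.63% of all). DESeq2 called 0 higher and 0 lower after adjustment, where it called 8 and 38 of the 15083 genes. At an unadjusted p under 0.05 it had 13 of the 53 higher and 1 lower, with no share of all genes to set beside these counts. No DESeq2 result was available for the gene that edgeR called, so the 0 need not mean that this gene was tested and failed.

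The fitted log2 fold changes of the 53 genes ran from -1.16 to 2.42. The 2.42 was of ENSCAFG00000011401 (SE 1.43, edgeR adjusted p = 0.586), with a count of 0 in OS-1 replicates 3 and 4 and both OSCA-32 libraries. The median of the 53 was 0.50, beside 0.09 over all 15083 genes and -0.06 over the tested genes that passed the floor. Fold changes were positive for 43 of the 53, for 56.3% of all tested genes and for 45.8% of those past the floor. A gene could pass the filter through its OSCA-78 libraries, so these values describe the 53 and not all 60. With no filter on low counts all 60 were fitted, and their median was 0.53 beside 0.15 over all genes. With scaling to total counts in place of TMM the median of all genes moved to 0.52 and that of the 53 to 0.97, and 13 of the 53 were called higher, where 3.57% of all genes were.

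The 4 comparisons with single lines share the OSCA-78 libraries and are given side by side. Against OS-1 exosomes, 0 of the 53 genes were higher after edgeR's adjustment (0% of all tested genes) and 6 at an unadjusted p under 0.05 (2.75% of all), and the median log2 fold change was 0.22. Against OSCA-32, 0 were higher after adjustment (0.00663% of all) and 9 before it (5.36%), with a median of 0.41. Against OSCA-8, 1 was higher after adjustment (0.0265% of all) and 14 before it (5.46%), with a median of 0.68. Against OS-2, 9 were higher after adjustment (3.88% of all) and 16 before it (13.1%), with a median of 0.73. OS-2 exosomes thus gave most of the adjusted calls.

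The rule for named genes took, of the tested genes, the 2 with the smallest p in each direction of the exosome difference. ENSCAFG00000008166 (rank 20, score 2.31) was the gene that passed the adjusted test. It had 87.1 and 142 CPM (28 and 58 counts) in OSCA-78 exosomes. Other lines had 30.9, 28.2, 35.5 and 36.3 CPM in OS-1, 26.8 and 34.6 in OSCA-32, 12.8 and 19.2 in OSCA-8, and 12.5 and 28.7 in OS-2. Both OSCA-78 libraries lay above all 10 others, with a log2 fold change of 1.81 (SE 0.34) and an adjusted p of 0.00918 by edgeR. Without OSCA-78 exosome replicate 3 it was 1.59, with an adjusted p of 0.405 by edgeR; that fit has a single OSCA-78 library, assumed to vary like the other lines. In cells it had 93.5 and 103 CPM in OSCA-78, against 39.4 and 37.0 in OS-1, 24.8 and 40 in OSCA-8, and 32.4 and 39.0 in OS-2.

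ENSCAFG00000020425 (rank 35, score 1.96) was the most abundant of the 4 in OSCA-78 cells, with 1532 and 1223 CPM against 530 and 436 in OS-1, 622 and 528 in OSCA-8, and 15.1 and 1.97 in OS-2. Its exosome levels were 168 and 203 CPM in OSCA-78. They were 124, 183, 128 and 136 CPM in OS-1, 120 and 161 in OSCA-32, 81.8 and 109 in OSCA-8, and 12.5 and 4.41 in OS-2. The OSCA-78 and OS-1 libraries overlapped, and OS-2 stood apart on the low side in exosomes and in cells. The log2 fold change of 1.12 (SE 0.28) did not pass, with an edgeR adjusted p of 0.0783, and it was 0.56 with the OS-2 libraries left out.

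ENSCAFG00000004443 (rank 45, score 1.88) had the lowest fitted exosome difference. It had 21.8 and 46.6 CPM in OSCA-78 exosomes. It had 108, 78.8, 83.6 and 79.4 CPM in OS-1, 73.2 and 46.9 in OSCA-32, 74.1 and 101 in OSCA-8, and 22.8 and 24.3 in OS-2. Both OSCA-78 libraries lay below every OS-1 and OSCA-8 library, which is the opposite order to cells. There it had 27.8 and 11.7 CPM in OSCA-78 against 2.52 and 5.69 in OS-1, 1.05 and 1.47 in OSCA-8, and 2.32 and 3.54 in OS-2. The log2 fold change of -1.16 (SE 0.39) did not pass the edgeR test (adjusted p = 0.218).

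ENSCAFG00000000480 (rank 51, score 1.82) had 68.4 and 85.8 CPM in OSCA-78 exosomes. Other lines had 108, 127, 161 and 154 CPM in OS-1, 183 and 180 in OSCA-32, 81.8 and 73.9 in OSCA-8, and 56.1 and 22.1 in OS-2. OSCA-32 exosomes held the most. By edgeR the adjusted p was 0.366 for a log2 fold change of -0.70 (SE 0.30), while its cell levels were 28.8 and 61.5 CPM in OSCA-78 against 10.1 and 4.79 in OS-1, 3.31 and 15.3 in OSCA-8, and 4.63 and 3.38 in OS-2.

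**Figure D3:**
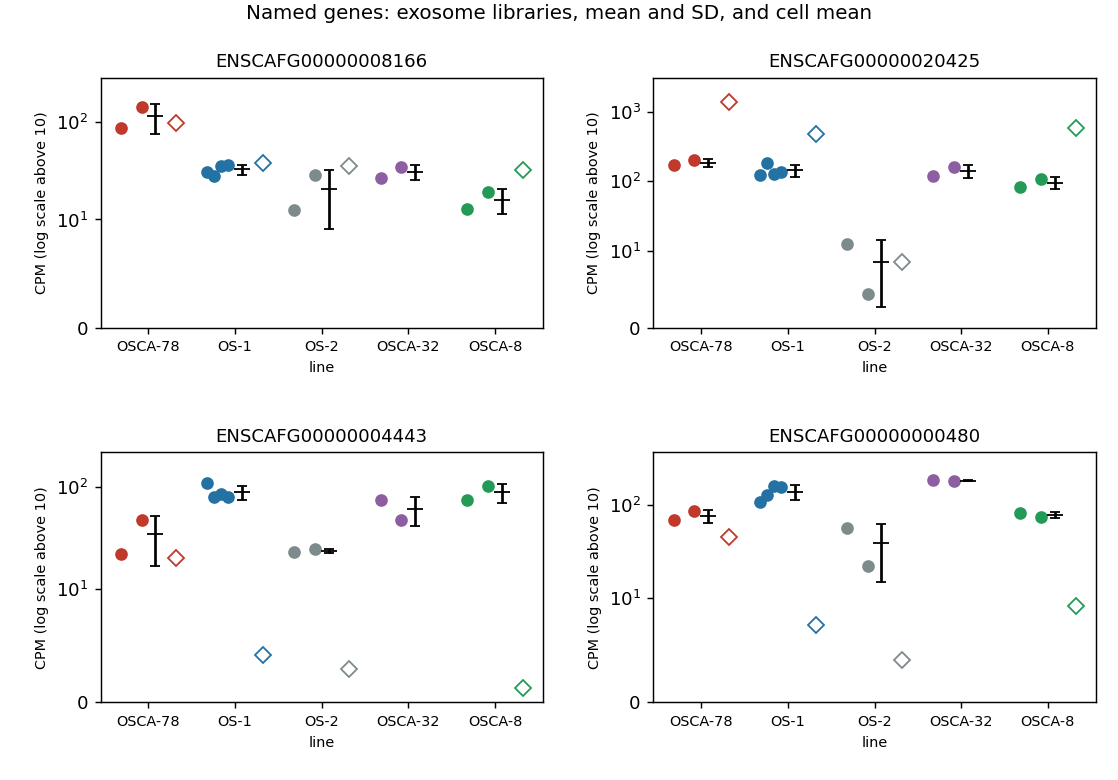
CPM of the 4 named genes by line on an axis that is logarithmic above 10: filled points are exosome libraries, the bar beside them is their mean ± SD, and the open diamond is the mean of the cell libraries of that line. ENSCAFG00000008166 is the highest in OSCA-78 in both fractions, whereas ENSCAFG00000004443 is the highest in OSCA-78 cells but not in OSCA-78 exosomes.

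The highest-scoring gene and another near the top were singled out after their values were seen. ENSCAFG00000020059 (rank 1, score 4.42) had 49.1 and 34.4 CPM in OSCA-78 cells, against 7.27 and 0 in OS-1, 0.376 and 1.19 in OSCA-8, and 0.267 and 0 in OS-2. Its exosome levels were 77.7 and 184 CPM in OSCA-78. They were 116, 84.5, 113 and 68.1 CPM in OS-1, 102 and 84.0 in OSCA-32, 51.1 and 38.3 in OSCA-8, and 8.31 and 8.82 in OS-2. Its OSCA-78 cell libraries lay far above all others, by selection, whereas OSCA-78 replicate 2 lay among the OS-1 exosome libraries. By edgeR the adjusted p was 0.122 for a log2 fold change of 1.15 (SE 0.32).

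ENSCAFG00000005403 (rank 7, score 3.45) had 93.3 and 108 CPM in OSCA-78 exosomes, 100, 92.9, 113 and 116 in OS-1, 120 and 119 in OSCA-32, 69.0 and 98.5 in OSCA-8, and 29.1 and 26.5 in OS-2. Its cell levels were 29.1 and 13.0 CPM in OSCA-78, 3.26 and 0.259 in OS-1, 1.73 and 2.94 in OSCA-8, and 0 and 0.0786 in OS-2. All 12 exosome libraries held it, including those of OS-2, whose cell libraries held almost none. The exosome log2 fold change was 0.03 (SE 0.28).

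The same contrast between fractions held for the genes with the lowest levels in other cells, a subset made after the values were seen and given without a test. The 20 genes under 10 CPM in all 6 other cell libraries summed to 1088 CPM over pooled OSCA-78 exosomes (exact 95% Poisson interval 1014 to 1167, counting error only). The sums were 1123 CPM in OS-1 exosomes (1071 to 1177), 1083 in OSCA-32 (1013 to 1157), 768 in OSCA-8 (707 to 833) and 216 in OS-2 (187 to 248). OSCA-78, OS-1 and OSCA-32 had overlapping intervals. In cells the same 20 genes summed to 468 CPM in OSCA-78, 77.7 in OS-1, 63.8 in OSCA-8 and 24.3 in OS-2. The exosome mean exceeded the cell mean for 15 of the 20 in OSCA-78, for all 20 in OS-1 and in OSCA-8, and for 18 in OS-2. The low level in other cells was fixed by the choice of the 20, so these counts are a description.

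The 40 other genes, which reached 10 CPM in at least 1 other cell library, summed to 3571 CPM in OSCA-78 exosomes (3435 to 3711). They summed to 3079 CPM in OSCA-32 (2959 to 3201), 3013 in OS-1 (2927 to 3101), 1924 in OSCA-8 (1827 to 2026) and 657 in OS-2 (606 to 711). These intervals cover counting error only. By library, OSCA-78 exosomes held 2991 CPM in replicate 2 and 4028 CPM in replicate 3. Replicate 2 lay within the library ranges of OS-1 (2629 to 3277 CPM) and OSCA-32 (2976 to 3183 CPM). In cells the 40 genes summed to 8379 CPM in OSCA-78, 2912 in OS-1, 2585 in OSCA-8 and 1663 in OS-2. For these 40 the OSCA-78 exosome sum was below the OSCA-78 cell sum, whereas for the 20 it was above. The 20 were also the lower in OSCA-78 cells, with a median of 21.4 CPM against 117 CPM for the 40. This contrast is therefore a description as well.

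**Figure D4:**
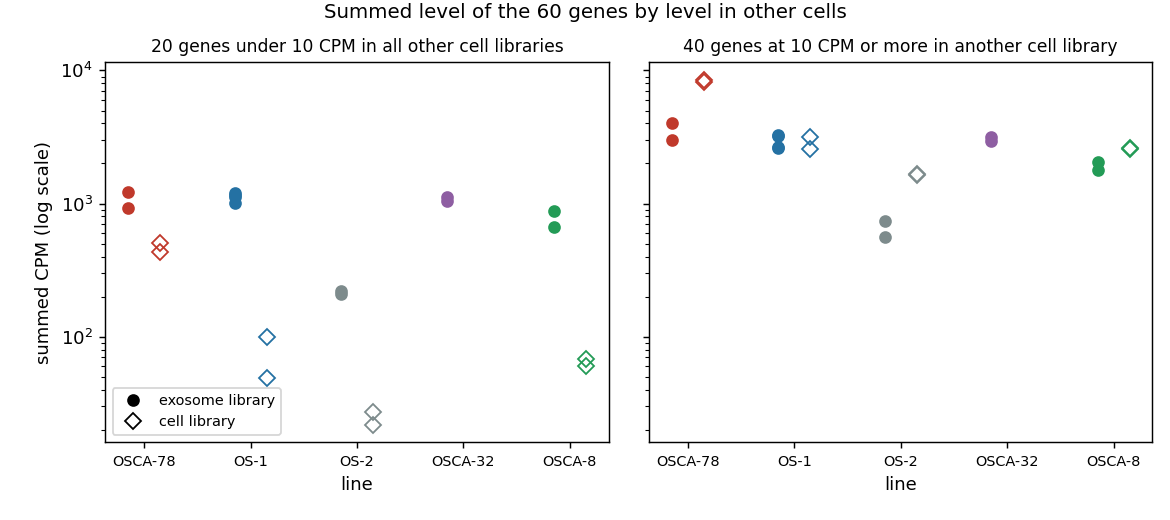
Summed CPM on a log axis by line, with filled circles for exosome libraries and open diamonds for cell libraries: the 20 genes under 10 CPM in all other cell libraries on the left and the 40 others on the right. For the 20, exosomes of OSCA-78, OS-1 and OSCA-32 lie near 1088, 1123 and 1083 CPM although OSCA-78 cells exceed the cells of the other lines.

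The 17 genes under 1 CPM in both OS-2 cell libraries were counted 159 times in OS-2 exosomes, or 170 CPM (145 to 199), and 43 times in OS-2 cells, or 1.80 CPM (1.30 to 2.42). Their low OS-2 cell level was fixed by the choice of the 17, so the contrast is a description. Of the 17, 16 (94.1%) had a count in at least 1 OS-2 exosome library and 12 (70.6%) had a count in both. Of all 180 genes that passed the OSCA-78 cell floor and were under 1 CPM in both OS-2 cell libraries, 92.8% and 77.2% did, so the 17 were close to that background. Over all 12162 genes under 1 CPM there the shares were 61% and 33.4%.

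Across the 60 genes the levels in OSCA-78 exosomes ranked more like exosomes of other lines than like OSCA-78 cells. Spearman's rho with the exosomes of OS-1 was 0.81, of OSCA-32 0.75, of OSCA-8 0.70 and of OS-2 0.60, compared with 0.38 with OSCA-78 cells. With cells of OSCA-8, OS-1 and OS-2 it was 0.44, 0.41 and 0.37. The OSCA-78 exosome replicates had a rho of 0.76 between them, and the OSCA-78 cell replicates 0.91. These are correlations over genes, which are not independent replicates, and the exosome values share a library preparation and a low depth. Over the 8831 genes past the floor, OSCA-78 exosomes had a rho of 0.38 with OSCA-78 cells. With exosomes of other lines it was 0.89 for OS-1, 0.83 for OSCA-32, 0.79 for OSCA-8 and 0.47 for OS-2.

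Beyond the 60, the exosome difference fell with the rank of the score. The median log2 fold change, OSCA-78 exosomes over the 4 other lines, was 0.50 for ranks 1 to 60 (53 tested), 0.46 for ranks 61 to 120 (56 tested), 0.33 for ranks 121 to 500 and 0.09 for ranks 501 to 2000. It was -0.01 for ranks 2001 to 4000, -0.12 for ranks 4001 to 6000 and -0.19 for ranks 6001 to 8831. The cut at 60 therefore did not mark a step. Within the 53 tested genes the score itself had a rho of -0.18 with the exosome fold change, and over the 8014 tested genes past the floor it had a rho of 0.25.

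**Figure D5:**
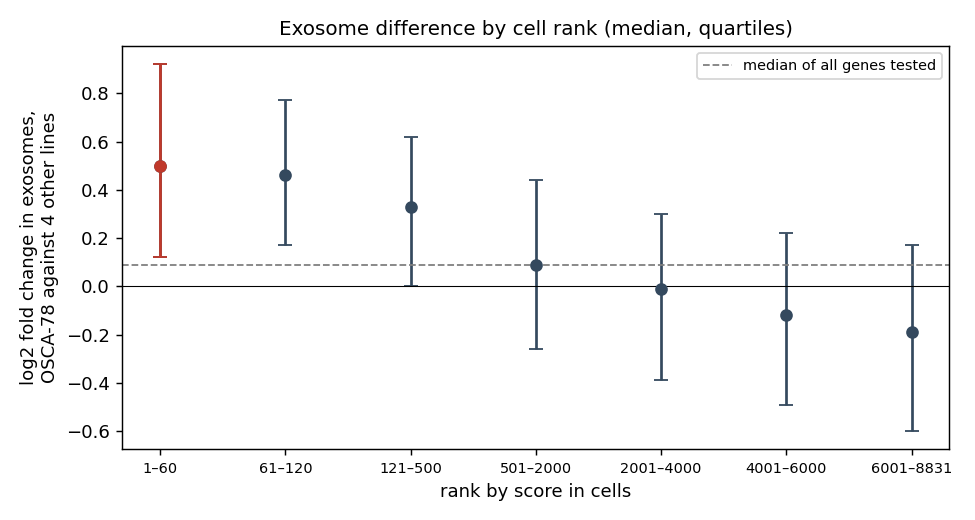
Median and quartiles of the exosome log2 fold change, OSCA-78 over the mean of 4 other lines, for genes in bands of their rank by cell score. The medians fall from 0.50 in ranks 1 to 60 to -0.19 in ranks 6001 to 8831, with wide quartiles in every band.

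The same rule applied to cells of the other lines gave lists that differed in how far they stood out. The 60 genes of OSCA-78 scored 1.72 to 4.42, those of OS-2 6.15 to 144, of OSCA-8 1.32 to 2.92 and of OS-1 1.11 to 1.65. The 60 OS-2 genes included 16 under 1 CPM in all other cells, and the OSCA-78 list held 0. Each list was then read in its own line's exosomes against the mean of the 4 other lines, with fits that share libraries. Of 53 tested OSCA-78 genes, 1 was higher after edgeR's adjustment. Of 52 tested OS-2 genes 18 were (13.2% of all genes), of 55 tested OSCA-8 genes 1 was (0.0796% of all), and of 57 tested OS-1 genes 0 were (0.0133% of all), with 1 at an unadjusted p under 0.05 (6.97% of all). The median log2 fold change was 0.50 for the OSCA-78 genes, 0.76 for the OS-2 genes, 0.43 for the OSCA-8 genes and -0.03 for the OS-1 genes, beside medians over all genes in the same contrasts of 0.09, -0.21, 0.05 and 0.12. The summed CPM in own exosomes over the mean of the 4 other lines was 1.55 for the OSCA-78 list, beside 1.71 for the OSCA-8 list, 1.56 for the OS-2 list and 1.20 for the OS-1 list. The own line had the highest exosome mean for 32 genes of the OSCA-78 list (22.4% of the 18410 genes) and 4 of the OS-2 list (5.98%). It had the highest for 12 genes of the OSCA-8 list (14.0%) and 10 of the OS-1 list (18.8%). After TMM scaling the counts were 24 for OSCA-78 (17.7%), 36 for OS-2 (28.6%), 25 for OSCA-8 (18.5%) and 7 for OS-1 (11.2%). Among the 8709 genes past the OSCA-78 cell floor, the TMM shares were 13.4% for OSCA-78 and 47.8% for OS-2. They were 14.9% for OSCA-8 and 6.46% for OS-1. Differences between these lists were not tested.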

How the data were processed

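ExoQuick reagent served to enrich exosomes, the SeraMir ExoRNA Amp kit to prepare RNA and a SMARTer Stranded Pico kit to make libraries, per the labels' protocols. The authors deposited raw read counts per gene for 24579 identifiers, whole numbers with no normalization. Per the submitters' processing notes, FastQC 0.11.5, Trimmomatic 0.33.0 and kallisto 0.43.0 were used and CanFam3.1 was among the builds; the counting tool and its strand setting were not given in the labels, and values of genes that overlap or nearly match another are uncertain. There was 1 column that matched no sample label, and it was not used.

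Groups came from titles and cell line labels. CPM used column totals. The 60 genes, the comparisons and the rule for named genes (of those tested, the 2 identifiers with the smallest p in each direction of the exosome difference) were chosen with earlier results of these data known. Exosomes were fitted with edgeR 4.0.16 (quasi-likelihood F test, TMM, filterByExpr with minimum count 10, robust dispersions, Benjamini-Hochberg at 0.05; R 4.3.3) on 12 libraries with 1 coefficient per line. Fits were tested on simulated data first. Alternatives were other scalings, no filter, a replicate block, thinning to the smallest total, DESeq2 1.42.0, limma 3.58.1, leaving out each library, and changes to the selection rule. Replicate pairs of a group differed by a chi-square per degree of freedom of at least 1.79, so no library was treated as a copy. Intervals (95%, Clopper-Pearson or Poisson) cover counting error only, since no molecular identifiers are described.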

Additional observations from a re-analysis of the deposited data

Results flagged for a closer look

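For the named genes and the summed level, the 4 OS-1 exosome libraries were checked for a library far from the others, 5 measures in all. ENSCAFG00000004443 had 108 CPM in OS-1 exosome replicate 1, against 78.8, 83.6 and 79.4 CPM in replicates 2, 3 and 4, a gap larger than Dixon's 95% critical value for 4 samples. Chance gives such a result for about 1 in 20 groups checked. The gene had 21.8 and 46.6 CPM in OSCA-78 exosomes, below all 4 OS-1 libraries with or without replicate 1.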

How the results depend on the processing

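With 2 OSCA-78 exosome libraries of low depth, the number of the 60 genes called higher (1) moved easily. Scaling to total counts gave 13 (538 over all genes fitted), no filter on low counts 3 (93) and a replicate block 4 (110). The number was 2 with limma voom (70) and 0 with DESeq2 (8), where the main fit called 19 over all genes. It was 0 with the rule applied to OSCA-78 cell replicate A alone and 2 with the rule made without OS-2 cells. Leaving out 1 exosome library at a time gave 0 to 2, with 0 without OSCA-78 replicate 3 (7 at an unadjusted p under 0.05), a fit whose single OSCA-78 library is assumed to vary like the other lines and whose median log2 fold change over those of the 60 tested was 0.54, and 2 without OS-1 replicate 2. The number called lower (0) was 1 with the replicate block and 0 to 0 when 1 library was left out. Replicate numbers were not taken to pair libraries in the main fit. Differences between replicates 1 and 2 correlated at -0.007 to 0.016 in 6 of 7 comparisons of lines. Those 6 did not involve OSCA-78, so they cannot show whether its replicates 2 and 3 share a difference with other lines. The only comparison that involves OSCA-78, with OS-1 over replicates 2 and 3, gave 0.334. The chi-square per degree of freedom between replicates 2 and 3 was 8.91 in OSCA-78 exosomes and 7.44 in OS-1 exosomes. In OS-1 exosomes it was 2.39 between replicates 1 and 2 and 2.11 between replicates 3 and 4. Across those pairs it was 7.44 to 8.90. Whether the replicate numbers mark shared preparations was not tested. The number of genes highest in OSCA-78 exosomes (32) was 14 among the 30 highest scores, 60 among the 120 highest, and 25 to 33 with 1 library left out. The summed ratio of 1.55 ran from 1.33 to 1.78 with 1 library left out. It turned to 0.547 with the rule made without OS-2 cells, which let in ENSCAFG00000030140, at 9509 CPM in OSCA-78 exosomes and 50959 CPM in OS-2 exosomes; without that gene the ratio was 1.60. ENSCAFG00000020425 passed with scaling to total counts (adjusted p = 0.00629), no filter (0.0315), the replicate block (0.0226) and without OS-1 replicate 2 (0.0457), all by edgeR. With the OS-2 line left out, an alternative chosen after seeing the data, 1 gene was higher (6 over all genes fitted) and 0 were lower (8). At an unadjusted edgeR p under 0.05, 13 were higher and 3 lower, with no share of all genes to set beside them. The summed ratio without OS-2 was 1.26. The cause of these moves was not tested.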

Other observations

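A pair of the 60 genes, singled out after their values were seen, set OS-1 exosome replicates 3 and 4 and the OSCA-32 exosomes apart from the rest. ENSCAFG00000011401 (rank 60) had 74.6 and 41.7 CPM in OSCA-78 exosomes, 46.0 and 65.7 in OSCA-8, 10.4 and 4.41 in OS-2, and 57.9 and 61.9 in OS-1 replicates 1 and 2. It had a count of 0 in OS-1 replicates 3 and 4 and in both OSCA-32 libraries, which allows up to 6.27 to 7.41 CPM there. In cells it had 186 and 197 CPM in OSCA-78, 108 and 94.5 in OSCA-8, 89.8 and 90.5 in OS-2, and 102 in OS-1 replicate A, with a count of 0 in OS-1 replicate B, which allows up to 0.388 CPM.

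ENSCAFG00000013389 (rank 55) showed the opposite order. It had 49.7 and 101 CPM in OSCA-78 exosomes, and 393 and 304 CPM in OS-1 replicates 3 and 4 and 285 and 336 CPM in OSCA-32. OS-1 replicates 1 and 2 had 27 and 64.8 CPM, OSCA-8 had 25.6 and 41.1, and OS-2 had 12.5 and 22.1. In cells it had 39.8 and 27.1 CPM in OSCA-78, 12.7 and 0.259 in OS-1, 14.7 and 4.04 in OSCA-8, and 0 in both OS-2 libraries. OS-1 replicates 3 and 4 and both OSCA-32 libraries were also among the 5 exosome libraries in which the 10 most counted genes took under 3% of counts. The remaining library of the 5 was OSCA-78 replicate 3. It had 41.7 CPM of ENSCAFG00000011401 and 101 CPM of ENSCAFG00000013389, so it did not share the values of the others. The part of library composition in these values was not tested.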
